A study of Mus musculus with 20 samples.

Results

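Mt1 and Mt2, which encode the metallothioneins MT-I and MT-II, were followed across 20 gastrocnemius libraries. They were taken as the rows of those names, 2 of the 53311 rows of the deposited count table, and both passed the filter on low counts that left 13560 genes. Gastrocnemius is a calf muscle. Per the labels, every mouse had the genotype Cre+:iMSBmal1 fl/fl, that is, a Cre recombinase and floxed alleles of Bmal1 (gene symbol Arntl), a circadian clock transcription factor. The study, per its title, set the loss of this factor from skeletal muscle against a bout of exercise. The mice received either vehicle or the treatment labelled iMSBmal1KO, and muscles were taken at zeitgeber time 13 (hours after lights on) at rest, or 1 h after 30 min on a treadmill. There were 5 libraries in each of the 4 groups, which are called vehicle at rest, vehicle after exercise, knockout-labelled at rest and knockout-labelled after exercise. For the last group the titles say acute exercise and the column names say trained, and the titles were followed. The vehicle mice thus carried Cre and the floxed alleles as well. Below, genotype means only the label, knockout-labelled or vehicle, and these groups differ by treatment. An effect of the treatment itself cannot be told apart from an effect of Bmal1 loss. The promoter that drives Cre, the inducing agent and the age of the mice are not given in the sources used here, and nothing in the labels says how animals map to libraries, so p-values measure the spread between these libraries. Both genes were chosen by their measured levels, for their variation after exercise. Every contrast that includes exercised libraries is therefore given for them as a description with no test, and only the difference at rest was tested. That test takes its estimate of spread from all 20 libraries, the exercised ones included, so for Mt2 the fit of the resting groups alone is given beside it.

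Metallothioneins are small cytosolic proteins in which cysteine thiols hold zinc and copper ions. Their genes are induced by free zinc through the metal-responsive transcription factor MTF-1, which binds metal response elements in their promoters. Glucocorticoids acting through the glucocorticoid receptor, interleukin-6 acting through STAT3, and oxidative stress are other known inducers. In skeletal muscle they are known to respond to exercise and to wasting.

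The coding sequences show the cysteine codons of both products and how far reads of the genes can be told apart. They are printed from the GENCODE M21 transcripts Mt1-201 and Mt2-201, with the codons for cysteine in capitals.
Mt1 coding: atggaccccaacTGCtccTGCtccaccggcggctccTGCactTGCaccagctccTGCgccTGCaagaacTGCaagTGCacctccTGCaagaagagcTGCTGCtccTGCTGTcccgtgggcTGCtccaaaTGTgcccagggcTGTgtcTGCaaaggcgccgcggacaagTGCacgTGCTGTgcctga
Mt2 coding: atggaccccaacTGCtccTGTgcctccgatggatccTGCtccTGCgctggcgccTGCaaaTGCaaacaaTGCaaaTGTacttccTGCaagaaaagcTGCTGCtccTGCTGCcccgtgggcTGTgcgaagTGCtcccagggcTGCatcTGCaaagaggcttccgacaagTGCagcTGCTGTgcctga
Each has 186 bases and 61 codons before the stop, and 20 of the 61 (32.8%) are cysteine codons. All 20 stand at the same codon positions in both genes. Without gaps, 148 of 186 bases (79.6%) were the same. The longest stretch shared by the whole transcripts was 20 bases, so reads longer than that differ between the genes at 1 base or more.

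The genes lie side by side on the plus strand of mouse chromosome 8. In GENCODE M21 on GRCm38, Mt2-201 spans 94172664 to 94173568 and Mt1-201 spans 94179082 to 94180327, each in 3 exons, with 5513 bases between them. The count table holds no coordinates, and the submitters' processing notes name both mm10 and GRCm39. The 250 bases before each RefSeq transcription start (GRCm38.p6) are shown because the metal response element is the defining element of these promoters. The RefSeq start of Mt2 lies before the GENCODE start and that of Mt1 just after it. Capitals mark the element's core, searched as TGCACNC and TGCGCNC on both strands.
Mt1 promoter, chr8:94178839-94179088, plus strand: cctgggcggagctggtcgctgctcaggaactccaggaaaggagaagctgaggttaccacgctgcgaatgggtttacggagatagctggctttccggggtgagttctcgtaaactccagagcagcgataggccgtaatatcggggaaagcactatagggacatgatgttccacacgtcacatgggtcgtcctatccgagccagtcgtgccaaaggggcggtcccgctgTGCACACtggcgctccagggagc
Mt2 promoter, chr8:94172368-94172617, plus strand: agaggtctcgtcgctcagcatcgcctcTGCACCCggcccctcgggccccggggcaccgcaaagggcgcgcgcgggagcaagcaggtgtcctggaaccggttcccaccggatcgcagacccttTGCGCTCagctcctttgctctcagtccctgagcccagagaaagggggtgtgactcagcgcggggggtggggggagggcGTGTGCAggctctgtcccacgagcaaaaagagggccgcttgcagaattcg
The Mt1 window held 1 core, TGCACAC, 23 bases before the start. In the next 50 bases Mt1 had 2 more, TGCACTC and TGCGCTC, of which the first overlaps a GC box by its last base. The Mt2 window held 3 cores, at 223, 128 and 50 bases before the start, and 1 more began 5 bases into the transcript. At least 1 core was found in 21.4% of 32851 RefSeq windows of 250 bases, and at least 3 in 1.26%. The Mt2 window also held 1 antioxidant element core (TGACNNNGC, in 10.2% of windows), and the Mt1 window held 2 GC boxes (GGGCGG, in 32.7%). Neither window held the E-box CACGTG, which is the sequence BMAL1 and CLOCK bind (6.02% of windows), the TATA box TATAAA (12.4%) or the glucocorticoid receptor core TGTTCT (16.1%). The windows end at the RefSeq starts, and metal response element cores were also found after both starts. Elements absent from a window may therefore lie outside it.

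Total counts ran from 8045154 to 11269812 per library. Arntl, the targeted gene, had 77 to 198 counts per library and was not called between knockout-labelled and vehicle libraries by edgeR, whether at rest (log2 difference 0.24 ± 0.23 SE, adjusted p = 0.725) or after exercise (0.20 ± 0.23 SE, adjusted p = 0.689). How Arntl was counted over its exons is not given in the sources used here, so genotype directions rest on the labels. The 7 muscle markers, such as Ckm and Acta1, summed to at least 101000 counts per 1000000 (CPM) in every library. Slow-fibre content stood apart in 5 libraries: Myh7, the slow myosin heavy chain, was under 10 CPM in vehicle at rest replicate 5, vehicle after exercise replicates 2 and 4, and knockout-labelled after exercise replicates 2 and 4, against 48.4 to 1240 CPM elsewhere. The 5 neutrophil markers summed to at most 0.972 CPM in any library, with Ly6g at 0 throughout. The 4 macrophage markers summed to 16.4 to 33.0 CPM.

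Mt1 was lowest in vehicle muscle at rest and highest in vehicle muscle after exercise. Levels are CPM with libraries scaled by TMM, the trimmed mean of M-values. In vehicle at rest, replicates 1 to 5 stood at 11.1, 6.72, 9.69, 5.29 and 3.22 CPM (29 to 96 counts). After exercise the vehicle libraries stood at 21.4, 45.1, 31.1, 40.1 and 13.3 CPM (142 to 396 counts). All 5 exercised vehicle libraries were above every resting vehicle library, with replicate 5 the closest. Knockout-labelled libraries at rest stood at 17.2, 12.2, 5.65, 8.52 and 9.16 CPM (51 to 138 counts). After exercise they stood at 12.3, 12.2, 14.55, 19.03 and 16.4 CPM (106 to 191 counts), and only replicate 4 exceeded the highest resting library of its genotype. In order, the means were 7.21 ± 3.22 CPM in vehicle at rest, 10.53 ± 4.37 in knockout-labelled at rest, 14.9 ± 2.90 in knockout-labelled after exercise and 30.2 ± 13.1 in vehicle after exercise (SD, n = 5 each). The ranges of each pair of neighbours in that order overlapped.

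Mt2 followed the same order of groups with wider steps. Vehicle libraries at rest stood at 3.02, 2.33, 2.698, 3.32 and 1.78 CPM (16 to 27 counts). After exercise the vehicle libraries stood at 15.7, 47.45, 14.3, 24.5 and 5.25 CPM (56 to 417 counts). Again all 5 were above every resting vehicle library, and replicates 2 and 5 were 9.04-fold apart. Knockout-labelled libraries at rest stood at 8.455, 6.435, 3.10, 4.53 and 3.73 CPM (28 to 68 counts). After exercise they stood at 4.28, 11.55, 3.94, 11.7 and 5.66 CPM (36 to 107 counts), where replicates 2 and 4 were high and the other 3 lay within the resting range of their genotype. The means were 2.63 ± 0.602 CPM in vehicle at rest, 5.25 ± 2.19 in knockout-labelled at rest, 7.43 ± 3.90 in knockout-labelled after exercise and 21.4 ± 16.1 in vehicle after exercise (SD, n = 5 each). Here too each pair of neighbours overlapped.

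**Figure D1:**
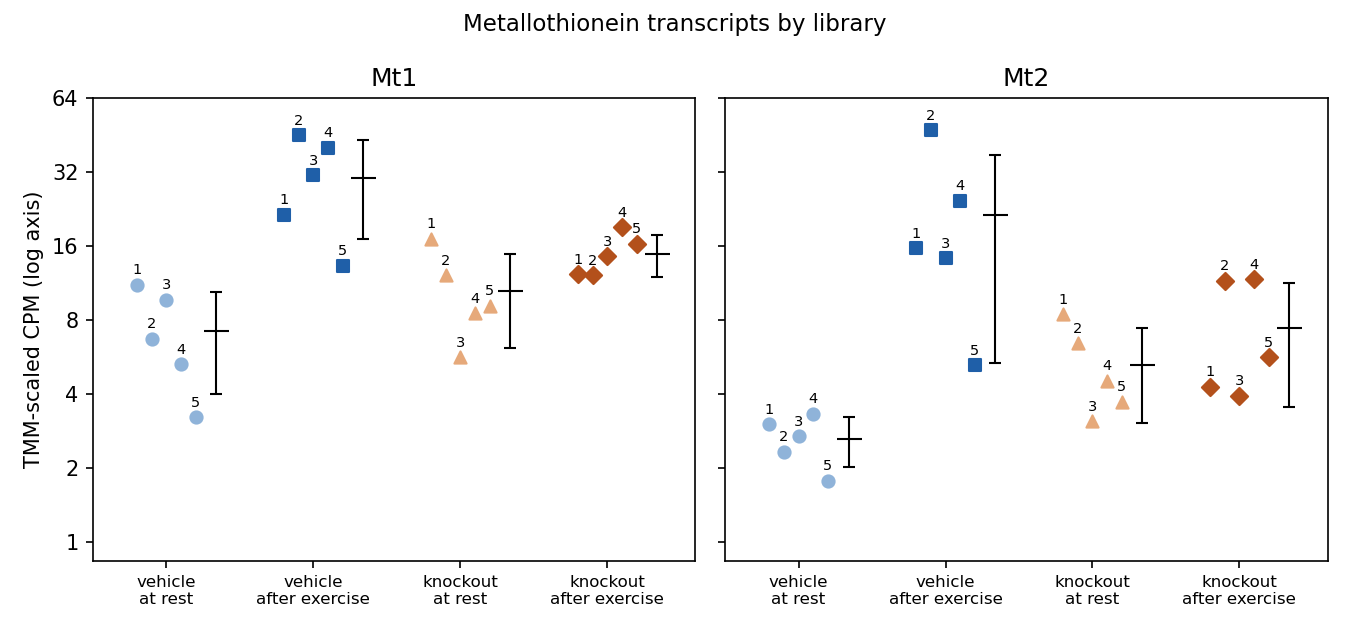
Mt1 (left) and Mt2 (right) in TMM-scaled CPM on a log axis, 1 point per library with its replicate number, for the 4 groups, and the mean with its SD (n = 5) to the right of each group. All 5 exercised vehicle libraries lie above the resting vehicle libraries for either gene, while the exercised knockout-labelled libraries overlap their resting ones.

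The size of the exercise response is given as a description. In vehicle muscle the fitted log2 fold change from rest to 1 h after exercise was 2.06 (SE 0.36) for Mt1 and 3.02 (SE 0.51) for Mt2. The ratio of group means was 4.19 for Mt1 and 8.15 for Mt2, and single exercised libraries ran from 1.85 to 6.25 times the resting mean for Mt1 and from 2.00 to 18.1 times for Mt2. In this contrast edgeR called 0.804% of all 13560 genes (0.605% as higher), and every exercised library was above every resting one for 1.18%. In knockout-labelled muscle the log2 fold changes were 0.50 (SE 0.35) for Mt1 and 0.50 (SE 0.50) for Mt2, with ratios of means of 1.41 and 1.42, in a contrast where 0.487% of all genes had exercised libraries wholly above resting ones. The difference between both responses, knockout-labelled minus vehicle, was -1.56 (SE 0.50) for Mt1 and -2.53 (SE 0.72) for Mt2 on the log2 scale. For this difference edgeR called 0 of all 13560 genes. These contrasts share libraries, so their values are not independent of each other.

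After exercise, both genes were lower in knockout-labelled than in vehicle muscle, again as a description. The log2 difference was -1.02 (SE 0.33) for Mt1 and -1.53 (SE 0.46) for Mt2. For either gene, 2 of the 5 exercised knockout-labelled libraries were below every exercised vehicle library, and the others lay above vehicle replicate 5. For 3.59% of all genes the knockout-labelled libraries were wholly below. Replicate 2 of exercised vehicle muscle weighed most on Mt2: without it the log2 difference was -1.01, and the response to exercise in vehicle was 2.50.

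At rest, neither gene passed the test between genotypes. For Mt1 the log2 difference of knockout-labelled against vehicle was 0.54 ± 0.37 SE (95% interval -0.23 to 1.32, edgeR adjusted p = 0.557), a ratio of means of 1.46. For Mt2 it was 0.99 ± 0.55 SE (interval -0.17 to 2.16, adjusted p = 0.440), a ratio of 2.00, with 4 of 5 knockout-labelled libraries above all 5 vehicle libraries. The Mt2 groups overlapped through knockout-labelled replicate 3. In this contrast 3.86% of all genes were called, 1.80% as higher, and 2.80% had knockout-labelled libraries wholly above vehicle ones. The SE and p come from a model whose spread includes the exercised libraries. Fitted to the 2 resting groups alone, Mt2 had an SE of 0.277 and an adjusted p of 0.0580 by edgeR, above the threshold of 0.05. Mt1 had an adjusted p of at least 0.402 in every alternative fit, by edgeR, DESeq2 or limma-voom, that of the resting groups alone included. The intervals run from below to well above the vehicle level, so equal levels at rest were not shown.

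The spread between libraries is given as a description, since variation after exercise is what the genes were chosen by. In vehicle after exercise the coefficient of variation (SD over mean) of Mt2 was 75.0%, where counting error alone gives 7.13%, and replicate 2 held 417 counts (exact Poisson 95% interval 378 to 459) against 56 (42.3 to 72.7) in replicate 5. Such intervals cover counting error only, because sequenced reads need not stem from independent molecules. With the counting part removed, the Mt2 variation in that group was higher than that of 98.9% of the 11513 genes with a mean of at least 20 counts there, and that of Mt1 (42.8%) was higher than 95.4%. The exception among exercised groups was Mt1 in knockout-labelled muscle, with 17.5% beyond counting, higher than 66.1% of genes, while Mt2 in the same libraries had 51.0% (higher than 97.5%). In vehicle muscle at rest the positions were the other way round, with 42.8% for Mt1 and 9.89% for Mt2. These were higher than 97.1% and 45.6% of genes. The Mt2 value rests on 16 to 27 counts per library, where the whole variation of 22.9% was close to the 20.7% that counting gives. In knockout-labelled muscle at rest the values were 40.2% for Mt1 and 39.0% for Mt2 (higher than 96.5% and 96.3% of genes). High spread was thus not limited to exercised libraries.

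The balance of Mt2 and Mt1 differed among libraries. Per kilobase of transcript (549 bases for Mt1-201, 511 for Mt2-201), the mean level in vehicle at rest was 13.1 CPM for Mt1 and 5.14 for Mt2, and in vehicle after exercise 55.0 and 41.9. The ratio of Mt2 to Mt1 in CPM ran from 0.271 to 0.628 in vehicle at rest and from 0.394 to 1.05 in vehicle after exercise, with replicate 2 as the only library above 1. In knockout-labelled muscle it ran from 0.407 to 0.549 at rest and from 0.271 to 0.947 after exercise. The library orders were alike: over the 20 libraries the log2 CPM of Mt1 and Mt2 correlated with r = 0.899, and with r = 0.711 after subtraction of each group's mean. Both are descriptions of 20 points that share groups and scaling.

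**Figure D2:**
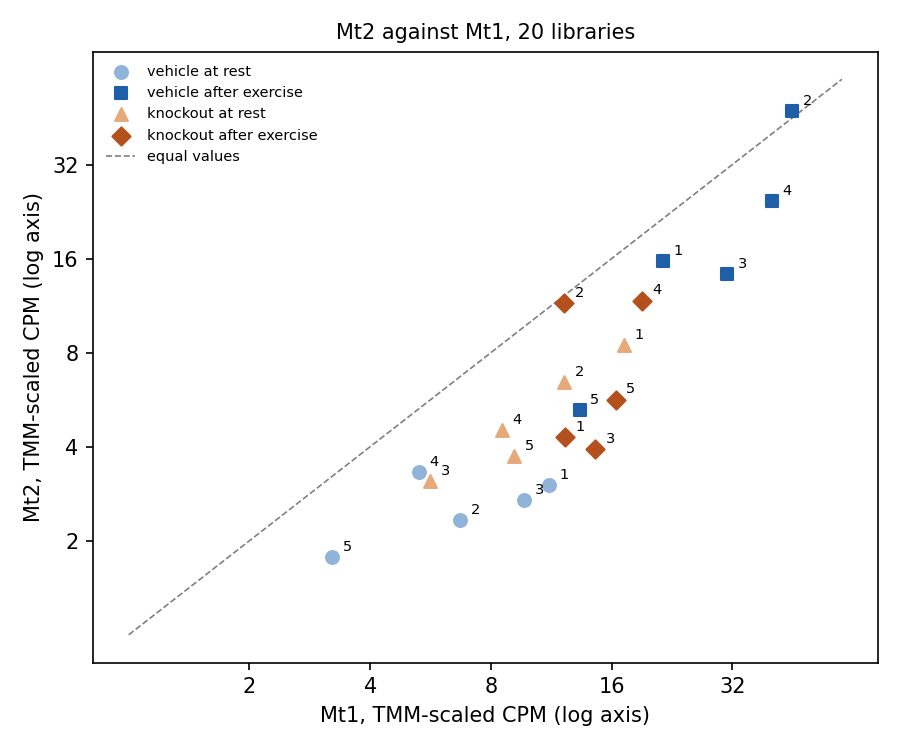
Mt2 against Mt1 in TMM-scaled CPM on log axes, 1 point per library with its replicate number, 4 groups by colour and shape, with a dashed line of equal values. Only vehicle after exercise replicate 2 lies above the line (ratio 1.05), and knockout-labelled after exercise replicate 2 lies close under it (0.947).

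An antisense gene limits what the Mt2 row can show. Gm45774 has 1 exon on the minus strand, from 94170748 to 94173412, which covers 355 of the 511 bases (69.5%) of Mt2-201 and none of Mt1-201. Gm45774 held 13 to 370 counts per library, and its CPM was 0.647 to 1.49 times that of Mt2 in every library. Its group means were 2.74 ± 0.872 CPM in vehicle at rest, 22.3 ± 14.7 in vehicle after exercise, 4.87 ± 1.53 in knockout-labelled at rest and 8.15 ± 3.45 in knockout-labelled after exercise (SD, n = 5 each), close to those of Mt2. The use of strand in counting is not given in the sources used here, so reads of both genes cannot be told apart. The absolute level of Mt2 is therefore uncertain. So are the ratios of Mt2 to Mt1 and which of these 2 genes is higher, since the Mt2 row alone was used. With both rows summed, the exercise response was 3.03 in vehicle and 0.62 in knockout-labelled muscle, and the resting genotype difference was 0.91 (edgeR adjusted p = 0.436). Gm45774 by itself was not called at rest (log2 difference 0.83 ± 0.51 SE, adjusted p = 0.492).

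**Figure D3:**
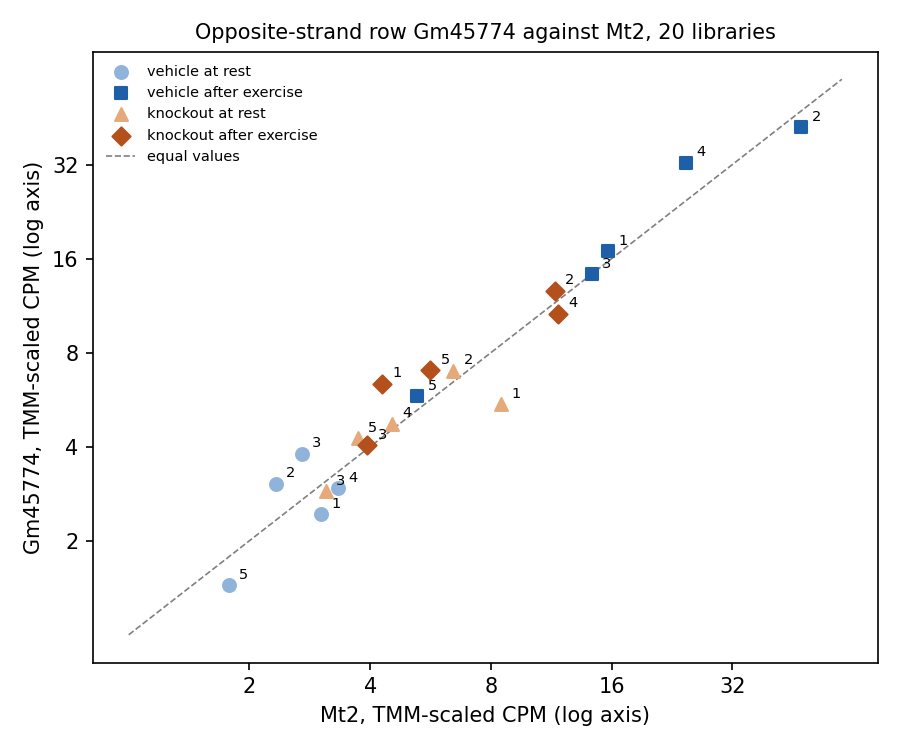
Gm45774 against Mt2 in TMM-scaled CPM on log axes, 1 point per library with its replicate number, with a dashed line of equal values. All 20 libraries follow the line, with ratios from 0.647 to 1.49.

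After exercise the Myh7-poor libraries had a higher median of Mt2 than the others, with overlapping ranges. Among exercised libraries, the 4 with Myh7 under 10 CPM had Mt2 at 11.55 to 47.45 CPM (median 18.1) and a Mt2 to Mt1 ratio of 0.610 to 1.05. The 6 with more Myh7 had Mt2 at 3.94 to 15.7 CPM (median 5.45) and a ratio of 0.271 to 0.732. For Mt1 the ranges of the 4 and the 6 were 12.2 to 45.1 and 12.3 to 31.1 CPM. Within the 6, Mt2 did not fall as Myh7 rose. Vehicle replicates 1, 3 and 5 had Myh7 at 662, 751 and 142 CPM and Mt2 at 15.7, 14.3 and 5.25 CPM. Knockout-labelled replicates 1, 3 and 5 had Myh7 at 48.4, 349 and 811 CPM and Mt2 at 4.28, 3.94 and 5.66 CPM. At rest the 1 library with little Myh7, vehicle replicate 5, had the lowest Mt1 (3.22 CPM) and Mt2 (1.78 CPM) of all 20. Without the 5 Myh7-poor libraries, the response in vehicle was 1.41 (SE 0.36) for Mt1 and 2.04 (SE 0.36) for Mt2. In knockout-labelled muscle it was then 0.47 (SE 0.34) for Mt1 and -0.16 (SE 0.35) for Mt2, so the fitted Mt2 value changed sign, as it did with the slow-fibre score as a covariate (-0.09, SE 0.45). The difference between responses without these libraries was -0.95 (SE 0.50) for Mt1 and -2.20 (SE 0.51) for Mt2. How libraries came to differ in slow fibres is not given in the sources used here. In bulk tissue, fewer cells of a type and less RNA per cell cannot be told apart.

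**Figure D4:**
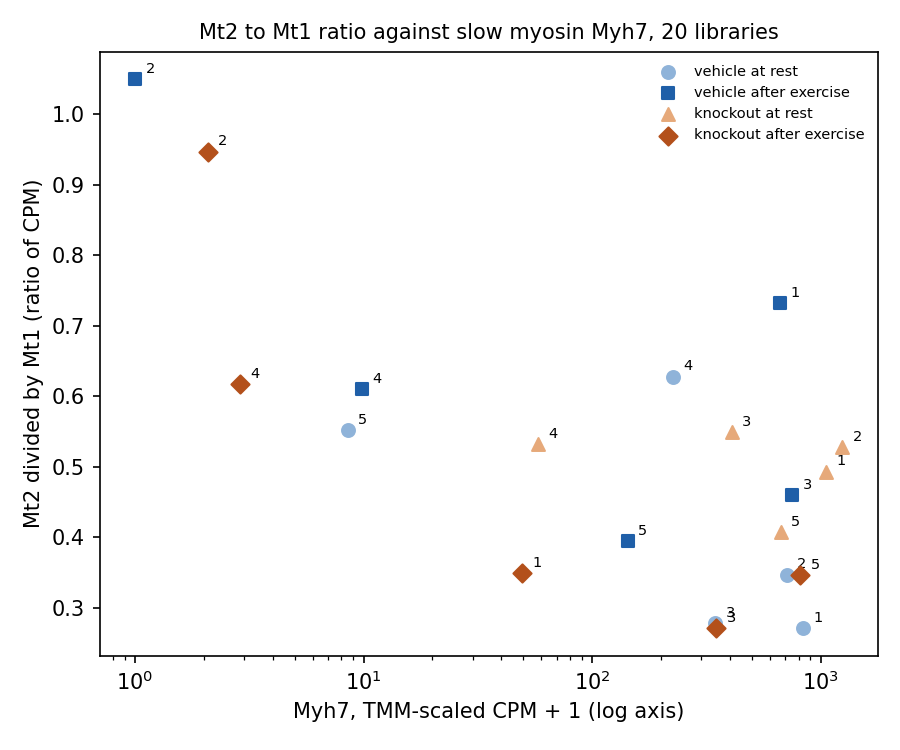
The ratio of Mt2 to Mt1 (CPM) against Myh7 (TMM-scaled CPM plus 1, log axis), 1 point per library with its replicate number. The 4 exercised libraries with Myh7 under 10 CPM have ratios of 0.610 to 1.05, and the other 6 exercised libraries 0.271 to 0.732.

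Zinc and copper handling genes, the metallothioneins' own pathway, included none that passed the test for exercise in vehicle muscle. Of 32 such genes 24 were tested, and edgeR called 0 (2 at an unadjusted p under 0.05, and 0 by DESeq2). With 0.804% of all genes called in this contrast, a count of 0 among 24 is near the background share. Mtf1, the zinc sensor that drives metallothionein genes, was 27.2 ± 2.09 CPM in vehicle at rest and 28.3 ± 1.98 after exercise (SD, n = 5 each; log2 difference 0.06 ± 0.10 SE, adjusted p = 0.948). Slc30a1, a zinc exporter that is also an MTF-1 target, was 7.05 ± 2.01 and 7.91 ± 2.00 CPM (0.16 ± 0.21 SE, adjusted p = 0.930). Slc39a14, a zinc importer, had the smallest p of the list and did not pass (11.3 ± 1.77 to 18.7 ± 6.25 CPM, log2 difference 0.72 ± 0.21 SE, adjusted p = 0.164). It passed only with the slow-fibre score as a covariate. The median log2 fold change of the 24 genes was 0.06, beside 0.00 over all genes. In knockout-labelled muscle edgeR called 0 of 24 after exercise (0 at an unadjusted p under 0.05, and 0 by DESeq2), as it called 0 of all 13560 genes.

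Between genotypes, 0 of these 24 genes were called by edgeR at rest (3 at an unadjusted p under 0.05, and 0 by DESeq2), near the 3.86% of all genes. After exercise 2 were called, both lower (8.33%), beside 6.42% of all genes (3.75% lower). Atox1, a copper chaperone, was 11.9 ± 1.196 CPM in vehicle and 8.37 ± 1.35 in knockout-labelled muscle (log2 difference -0.50 ± 0.15 SE, adjusted p = 0.0472). Ccs, the copper chaperone of superoxide dismutase, was also lower (-0.71 ± 0.22 SE, adjusted p = 0.0478). Leaving out single libraries ended the Atox1 call in 8 of 10 fits (adjusted p = 0.114 when knockout-labelled replicate 4 was dropped) and the Ccs call in 6 of 10 (0.117 when knockout-labelled replicate 2 was dropped). Each call also ended in 5 of 14 alternative settings, among them the fit without the Myh7-poor libraries. The other family members gave little signal: Mt3, the brain form, had 0 to 16 counts per library, and Mt4, the form of squamous epithelium, had 0 counts in all 20.

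Each of the lists for the other known inducers had called genes in vehicle muscle. All 4 lists were chosen with earlier results of these data known. The shares called in them are therefore a description, and the part of any inducer was not tested. Of 26 tested genes on the glucocorticoid-induced list (Mt1 and Mt2 left out), 4 were called after exercise in vehicle, all higher. That is 15.4%, beside 0.605% of all genes called higher. Fitted values were higher for 18 of the 26 and lower for 8, with a median log2 fold change of 0.51. The list also holds the gene of the receptor itself, Nr3c1, which is among those called. Nr3c1, the glucocorticoid receptor, rose from 69.2 ± 5.95 to 107 ± 25.5 CPM (log2 difference 0.63 ± 0.13 SE, adjusted p = 0.0154). Cdkn1a, a cell cycle inhibitor, rose from 6.305 ± 1.09 to 14.6 ± 1.88 CPM (1.21 ± 0.20 SE, adjusted p = 0.00407). Foxo1, a factor of the fasting response (1.42, adjusted p = 0.0287), and Klf15, a metabolic regulator (0.58, adjusted p = 0.0397), also rose. Fkbp5, a standard glucocorticoid target, did not pass (45.9 ± 13.4 to 67.8 ± 17.3 CPM, log2 difference 0.56 ± 0.25 SE, adjusted p = 0.480). The Nr3c1 call ended in 3 of 10 fits that each left out a library (adjusted p = 0.0610 when exercised vehicle replicate 4 was dropped), the Foxo1 call in 6 (0.0943, resting vehicle replicate 5 dropped) and the Klf15 call in 8 (0.141, exercised vehicle replicate 3 dropped). Without the Myh7-poor libraries these 4 calls ended: the Cdkn1a response was then 1.13 (adjusted p = 0.0626), close to its value with all libraries, and that of Nr3c1 was 0.35 (0.292). Foxo1 and Klf15 were at 0.96 (0.240) and 0.57 (0.162), and 1 other gene of the list was called instead, Zbtb16 (log2 difference 0.60 ± 0.12 SE, adjusted p = 0.0331), a transcription factor named here after its value was seen.

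Of 15 tested genes of interleukin-6 and STAT3 signalling, 3 were called after exercise in vehicle, all higher (20%, beside 0.605% of all genes called higher), and all 15 had positive fitted values (median log2 fold change 0.52). Junb, an AP-1 subunit, rose from 3.74 ± 1.43 to 24.7 ± 26.0 CPM (log2 difference 2.72 ± 0.51 SE, adjusted p = 0.0150), with replicate 4 at 70.3 CPM. Cebpb, an acute phase transcription factor (0.80, adjusted p = 0.0219), and Pim1, a kinase downstream of STAT3 (1.17, adjusted p = 0.0363), also rose. Of 10 fits that each left out a library, 3 ended the Junb call (adjusted p = 0.0606 when resting vehicle replicate 2 was dropped), 5 the Cebpb call (0.0820, resting vehicle replicate 1) and 7 the Pim1 call (0.112, exercised vehicle replicate 4). Dropping exercised vehicle replicate 4 brought the Junb response to 1.83, and dropping the Myh7-poor libraries to 1.49, with the call kept in either case. Without the Myh7-poor libraries the Cebpb call ended (0.65, edgeR adjusted p = 0.136) and the Pim1 call was kept (1.32, adjusted p = 0.0253). Stat3 was 40.9 ± 2.00 and 50.2 ± 4.87 CPM (0.30 ± 0.09 SE, adjusted p = 0.148). Socs3, its feedback inhibitor, was 1.21 ± 0.272 and 5.10 ± 4.74 CPM (2.09 ± 1.13 SE, adjusted p = 0.645). The highest exercised vehicle library for Socs3 was replicate 5, the one with the lowest Mt1 and Mt2 of that group. Over all 20 libraries Socs3 was highest in knockout-labelled at rest replicate 1 (43.8 CPM). That library had the highest Mt1 (17.2 CPM) and Mt2 (8.455 CPM) of the resting libraries.

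Of 21 tested oxidative stress genes, 2 were called after exercise in vehicle, both higher (9.52%, beside 0.605% of all genes called higher). Nfe2l2, which encodes the stress factor NRF2, rose from 34.7 ± 6.28 to 65.2 ± 12.7 CPM (log2 difference 0.91 ± 0.14 SE, adjusted p = 0.00179). Srxn1, which repairs oxidised peroxiredoxins and is an NRF2 target, rose from 26.2 ± 4.82 to 59.3 ± 21.2 CPM (1.17 ± 0.23 SE, adjusted p = 0.0150). The Srxn1 call ended in 3 of 10 fits that each dropped a library (adjusted p = 0.0582 for resting vehicle replicate 5) and when the Myh7-poor libraries were dropped. Hmox1, haem oxygenase, did not pass (6.06 ± 1.39 to 8.99 ± 2.27 CPM, 0.57 ± 0.20 SE, adjusted p = 0.308). In knockout-labelled muscle edgeR called 0 of the 85 genes of the 4 lists after exercise (10 at an unadjusted p under 0.05, and 0 by DESeq2 or limma-voom), as it called 0 of all 13560 (639 at an unadjusted p under 0.05).

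**Figure D5:**
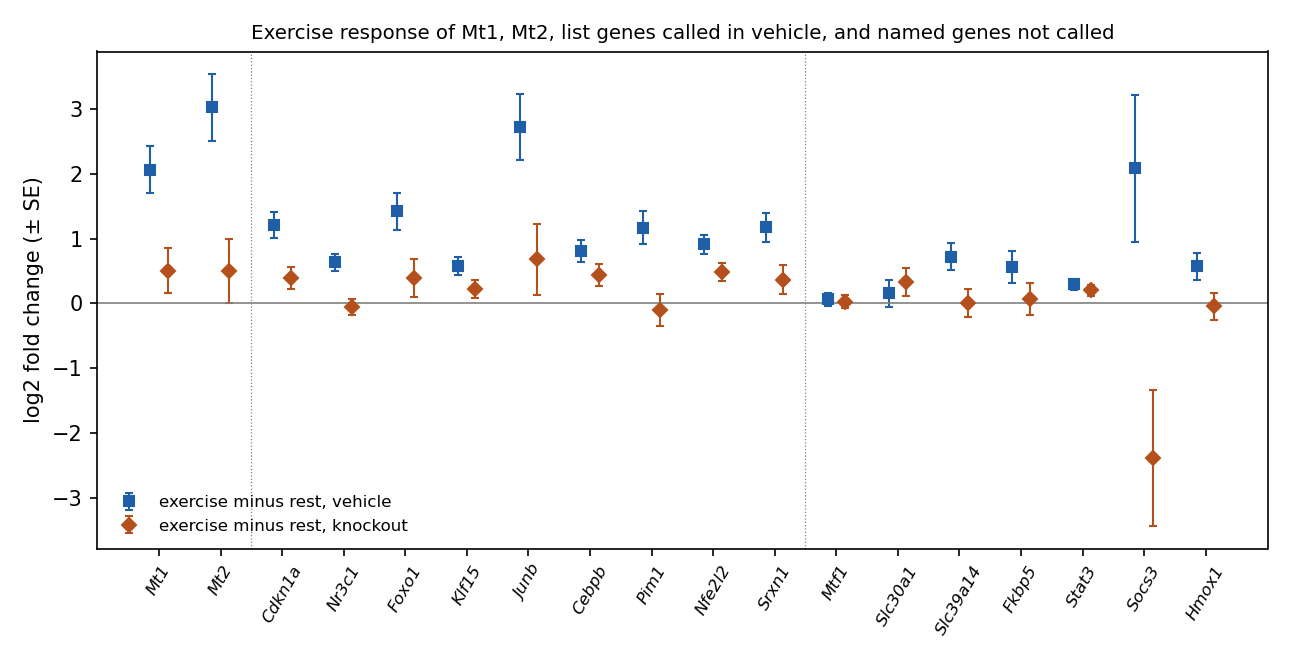
Fitted log2 fold changes from rest to 1 h after exercise with their SE, in vehicle (squares) and knockout-labelled muscle (diamonds), for Mt1 and Mt2 (left of the first dotted line, a description), the 9 list genes called in vehicle (middle) and 7 named genes that were not called (right). Mt1 and Mt2 were chosen for their variation after exercise, so their place above other plotted genes (Mt2 at 3.02 in vehicle) is no result. Ddit4, a gene of the glucocorticoid-induced list that was not called and is not plotted, had 3.04 in vehicle (SE 0.70, edgeR adjusted p = 0.0543). Mtf1 lies near 0 in both.

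After exercise, 12 of the 85 list genes differed between genotypes (14.1%, beside 6.42% of all genes), 11 lower and 1 higher in knockout-labelled muscle, beside 3.75% and 2.67% of all genes. Nr3c1 was lower (66.8 ± 7.72 CPM against 107 ± 25.5 in vehicle, log2 difference -0.68 ± 0.13 SE, adjusted p = 0.00148), as were Jak2, a kinase of the STAT3 pathway (-1.15 ± 0.17 SE, adjusted p = 0.000111), Junb (-2.20 ± 0.49 SE, adjusted p = 0.0105), Nfe2l2 (-0.57 ± 0.14 SE, adjusted p = 0.0143) and Osgin1, an oxidative stress gene (-0.88 ± 0.17 SE, adjusted p = 0.00168). The gene that was higher was Cdkn1a (3.05 ± 0.19 SE, adjusted p = 1.07e-09). Foxo1, Glul, Srxn1 and Txnrd1 made up the rest besides Atox1 and Ccs, with adjusted p from 0.0179 to 0.0367. Dropping single libraries ended these calls in 4 of 10 fits for Foxo1 (adjusted p = 0.0673, vehicle replicate 4), 6 for Glul (0.107, vehicle replicate 2), 2 for Srxn1 (0.0554, knockout-labelled replicate 4) and 1 for Txnrd1 (0.0536, the same library). Without vehicle replicate 4 the Junb difference was -1.31. Without the Myh7-poor libraries 4 of the 85 were called. At rest 2 of 85 were called (2.35%, beside 3.86%), Cdkn1a (3.87, adjusted p = 5.45e-11) and Pdk4 (0.88, adjusted p = 0.0478), and the latter call ended in 8 of 10 fits that each dropped a library (0.174 for knockout-labelled replicate 2). Exercised vehicle libraries enter both this contrast and the exercise contrast in vehicle. The edgeR test of the difference between exercise responses called 0 of the 85 (19 at an unadjusted p under 0.05, and 0 by DESeq2). It also called 0 of all 13560 genes (791 at an unadjusted p under 0.05).

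Library by library, the exercised vehicle replicates 2 and 4, the highest for Mt1 and Mt2, were also the highest for Nr3c1 (141 and 124 CPM, against 80.7 to 107 in the other 3). They had the highest mean log2 CPM of the glucocorticoid-induced list (6.22 and 6.41, against 5.66 to 6.01) and of the interleukin-6 and STAT3 list (5.04 and 5.23, against 4.35 to 4.87). For the zinc and copper list they were the lowest (3.26 and 3.16, against 3.29 to 3.39). For the oxidative stress list replicate 4 was the highest (5.63), while replicate 2 (5.40) was below replicates 1 (5.48) and 3 (5.53). Both were also Myh7-poor. In exercised knockout-labelled muscle, replicates 2 and 4, the highest for Mt2, had 6.03 and 5.97 on the glucocorticoid-induced list, the lowest of that group (up to 6.11), and the highest Nr3c1 of that group (69.4 and 78.55 CPM, against 58.8 to 65.7). The part of these levels in the Mt1 and Mt2 values was not tested.

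The genes most alike to Mt1 and Mt2 were sought among 11723 genes by the mean of the Pearson correlations with both, over the 20 libraries. After Gm45774 (0.939) came Dhrs3, a retinal reductase (0.873), Crem, a cyclic AMP response factor (0.833), Dus2, an enzyme that modifies transfer RNA (0.830), and Sik1, a salt-inducible kinase (0.821). Dhrs3 stood at 13.2 ± 2.98 CPM in vehicle at rest, 29.1 ± 5.87 in vehicle after exercise, 15.8 ± 4.56 in knockout-labelled at rest and 18.6 ± 4.595 in knockout-labelled after exercise (SD, n = 5 each). After subtraction of each group's mean the list changed to Gm45774 (0.814), Sem1, a proteasome subunit (0.809), Paip2, a repressor of translation (0.740), Fkbp3 (0.727) and B230206L02Rik (0.698). Sem1 stood at 33.9 to 48.7 CPM in vehicle after exercise and 29.0 to 34.7 in knockout-labelled after exercise. Rank correlations shared 4 of the 5 genes with either list. These values describe 20 libraries that share groups, scaling and, in part, slow-fibre content.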

How the data were processed

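RNA from 20 mouse gastrocnemius samples was sequenced, and 1 table of whole-number counts per gene symbol was used, as deposited by the authors. The submitters' processing notes name Partek, STAR 2.7.8a, DESeq2, mm10 and GRCm39 without their roles. The counting program, strand setting and annotation are not given in the sources used here. Groups and replicate numbers came from the titles. The exercised knockout-labelled columns are named as trained, and were matched to the titles, which say acute exercise, through the sample descriptions.

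Genes were kept by filterByExpr (minimum 10 counts) of edgeR 4.0.16 in R 4.3.3, which left 13560 genes with 99.83% of counts. Libraries were TMM-scaled. A robust quasi-likelihood model with 1 mean per group was fitted to all 20 libraries, and p-values were adjusted by Benjamini-Hochberg over all 13560 genes, with a threshold of 0.05. The SE of a log2 fold change came from its F statistic. Log2 CPM used a prior count of 2. DESeq2 1.42.0 and limma 3.58.1 served as alternatives. The scripts were tested on simulated counts.

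The genes, the 4 lists, the markers and the naming rule were chosen with earlier results of these data known. The rule named, in each list and contrast, up to 4 called genes of smallest p, or up to 2 that did not pass, the genes listed as always named, and the 5 genes most alike.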

Additional observations from a re-analysis of the deposited data

Results flagged for a closer look

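In 84 group checks (21 genes in 4 groups of 5), 8 had a library far from the others, meaning that the gap to its nearest neighbour was more than 0.71 of the group's range. Chance flags about 1 in 20 such groups. Neither Mt1, Mt2 nor Gm45774 was among them. Socs3 was far above the others in knockout-labelled at rest replicate 1 (43.8 CPM, 0.986 of the range) and in vehicle after exercise replicate 5 (13.3 CPM, 0.747). Junb was far above in vehicle after exercise replicate 4 (70.3 CPM, 0.817) and in knockout-labelled after exercise replicate 2 (7.34 CPM, 0.747). Mt3 was far above in knockout-labelled after exercise replicate 4 (2.16 CPM from 16 counts, 0.863). Slc39a14 was far above in knockout-labelled at rest replicate 2 (16.55 CPM, 0.758), Dhrs3 in knockout-labelled after exercise replicate 2 (26.6 CPM, 0.718), and Cdkn1a was far below in vehicle at rest replicate 1 (4.41 CPM, 0.737).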

How the results depend on the processing

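No alternative moved the tested resting difference of Mt1 or Mt2 past the threshold. The adjusted p lay between 0.402 and 0.795 for Mt1, and between 0.0580 and 0.625 for Mt2. Leaving out 1 library gave log2 fold changes of 0.30 to 0.74 for Mt1 and 0.76 to 1.13 for Mt2. For the exercise response in vehicle such fits gave 1.88 to 2.27 (Mt1) and 2.50 to 3.28 (Mt2), for that in knockout-labelled muscle 0.34 to 0.74 and 0.27 to 0.73, for the genotype difference after exercise -1.21 to -0.83 and -1.79 to -1.01, and for the difference between responses -1.77 to -1.32 and -2.78 to -2.01. The choice to leave out the 5 Myh7-poor libraries, and that to sum Mt2 with Gm45774, were made after seeing the data. The former moved 3 values by more than 1 SD between replicates: the response in vehicle to 1.41 (Mt1) and 2.04 (Mt2), and the Mt1 difference between responses to -0.95. The cause was not tested. With the replicate number as a block, the response in vehicle was 2.06 (Mt1) and 2.85 (Mt2) and the resting difference 0.56 (adjusted p 0.550) and 1.00 (adjusted p 0.257). The block ended the calls of Foxo1 in the genotype contrast after exercise (log2 -1.16 in place of -1.14, adjusted p 0.0635) and of Foxo1 (1.45 in place of 1.42, 0.0855), Cebpb (0.80 in both, 0.0552) and Pim1 (1.15 in place of 1.17, 0.103) in the exercise contrast in vehicle, with values close to those without it, and over all genes moved the exercise calls in vehicle from 109 to 100. The numbers are not known to pair animals: of 30 same-numbered pairs across groups, 15 had a correlation of deviations over 0.1, from -0.448 to 0.437.

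Over all genes the exercise calls in vehicle were 109, with 195 by DESeq2, 61 when only those groups were fitted and 61 without the Myh7-poor libraries. The genotype calls after exercise were 870, with 1138 by DESeq2, 567 when only those groups were fitted and 304 without the Myh7-poor libraries. Those at rest were 523, with 675 by DESeq2, 503 with library size only and 428 with no filter. The list counts that follow are to be read beside these totals. Of the 85 list genes, at rest 2 were called, 1 with library size only or no filter, 4 by DESeq2, and 1 to 2 without 1 library. After exercise 12 differed between genotypes, 6 when only those groups were fitted, 20 by DESeq2, 4 without the Myh7-poor libraries, and 7 to 15 without 1 library. For exercise in vehicle 9 were called, 4 with only those groups, 15 by DESeq2, 4 without the Myh7-poor libraries, and 3 to 10 without 1 library. The genotype count of 7 arose without exercised vehicle or exercised knockout-labelled replicate 4, and the exercise count of 3 without resting vehicle replicates 4 or 5 or exercised vehicle replicate 4. By list, the exercise calls in vehicle ranged over all settings from 0 to 1 (zinc and copper), 1 to 8 (glucocorticoid-induced), 0 to 6 (interleukin-6 and STAT3) and 1 to 2 (oxidative stress), the genotype calls after exercise from 0 to 4, 2 to 7, 1 to 5 and 0 to 5, and those at rest from 0 to 0, 1 to 2, 0 to 2 and 0 to 1. For exercise in knockout-labelled muscle and for the difference between responses the count was 0 under every alternative run. Resting vehicle libraries held only 16 to 27 counts of Mt2, which limits the precision of its fold changes.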
